A study of Drosophila melanogaster with 4 samples.

Results

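Insensitive (Insv) positions that were called at both embryonic ages and carried a higher score in the older embryos are described here. An early and a late position formed a pair when each was the other's nearest on its chromosome, by first base, and they lay at most 200 bp apart. A pair was taken as scoring higher late when its late score divided by its early score was above 1. Of 2233 pairs, 646 met this rule (28.9%), and the other 1587 scored lower late. The 646 pairs are drawn from 2390 called positions of Insv embryos aged 6.5-12 h (late) and 5364 of Insv embryos aged 2.5-6 h (early).

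Chromatin immunoprecipitation and sequencing (ChIP-seq) was done on whole embryos of w[1118], the white-eyed stock that the labels list as wild type, aged and collected at 25 degrees. The samples are an Insv immunoprecipitation of 6.5-12 h embryos, an Insv immunoprecipitation of 2.5-6 h embryos, and an IgG control of each age, with 1 sample per group, so no value has a replicate error. Peak lists of the 2 Insv samples were analysed, and IgG data were not analysed here. Each file lists positions 2 bp wide with a score whose scale is not named, and the read depth behind the scores is unknown. As whole embryos were used, binding in a few cells cannot be told apart from weaker binding in many.

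Insv is a nuclear protein with a BEN domain, a fold that contacts DNA, and is known in Drosophila as a transcriptional repressor. It acts with Suppressor of Hairless in the Notch pathway and is known for its part in the development of sensory organs and neurons. The younger collection covers gastrulation and the first formation of neuroblasts, and the older one covers germ band retraction and the differentiation of the nervous system, muscle and gut. ChIP-seq recovers the DNA that the protein is attached to, pooled over all the cells of a collection.

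The 646 pairs were selected on the deposited late and early scores, so ratios, scores and ranks are given as a description. Among the 646 pairs scoring higher late, the late/early ratio had a median of 1.39 with quartiles of 1.14 and 1.73. On the log2 scale the median was 0.47. Most excesses were small: 116 pairs had a ratio of at most 1.1, 243 were above 1.5, 101 were above 2 and 13 were above 3, which is 10.9%, 4.52% and 0.582% of all pairs for the last 3 thresholds. Over all 2233 pairs the median ratio was 0.702, so a ratio of 1 lay above the middle of the distribution.

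There was no gap in the ratios at the threshold. The pairs just above 1 were at X 11263493 (late 39.01, early 38.97), at 2L 13837812 (late 50.33, early 50.26) and at 3R 16078943 (late 35.54, early 35.47). Just below 1 lay 3L 21634003 (late 8.24, early 8.26), 3L 21673134 (late 22.58, early 22.63) and 3R 5536113 (late 22.60, early 22.70). A position is named throughout by the first base of its late call in build dm3.

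The late score of the 646 pairs was 17.4 at the median (lowest 4.37, highest 199.8), and the early score was 11.7 (lowest 2.77, highest 179). The remaining pairs had a late median of 12.9 and an early median of 27.7. In terms of place in the whole list, where number 1 is the highest score, the 646 pairs had a median late place of 949.5 of 2390 and a median early place of 2569.5 of 5364. As shares of list length, they stood at a median of 60.3% from the bottom of the late list and 52.1% from the bottom of the early one. For 442 of 646 pairs the late percentile was the higher one.

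Ranking within the pairs removes the unequal list lengths. Numbered 1 to 2233 by score at each age, all 646 pairs had a better late than early number, with medians of 937.5 late and 1690.5 early. So did 485 of the 1587 remaining pairs, which makes 1131 of 2233 pairs (50.6%). A ratio above 1 was thus stricter than a better rank among the pairs, but not than a higher percentile of the whole list, which 442 of the 646 pairs had. The name of each position also holds a rank of the authors, shared by neighbouring positions. This number was smaller late than early for 510 of 646 pairs (78.9%) and for 757 of 1587 others (47.7%). Those ranks run to 1871 late and 4198 early, so a smaller number late is partly a matter of list length.

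**Figure D1:**
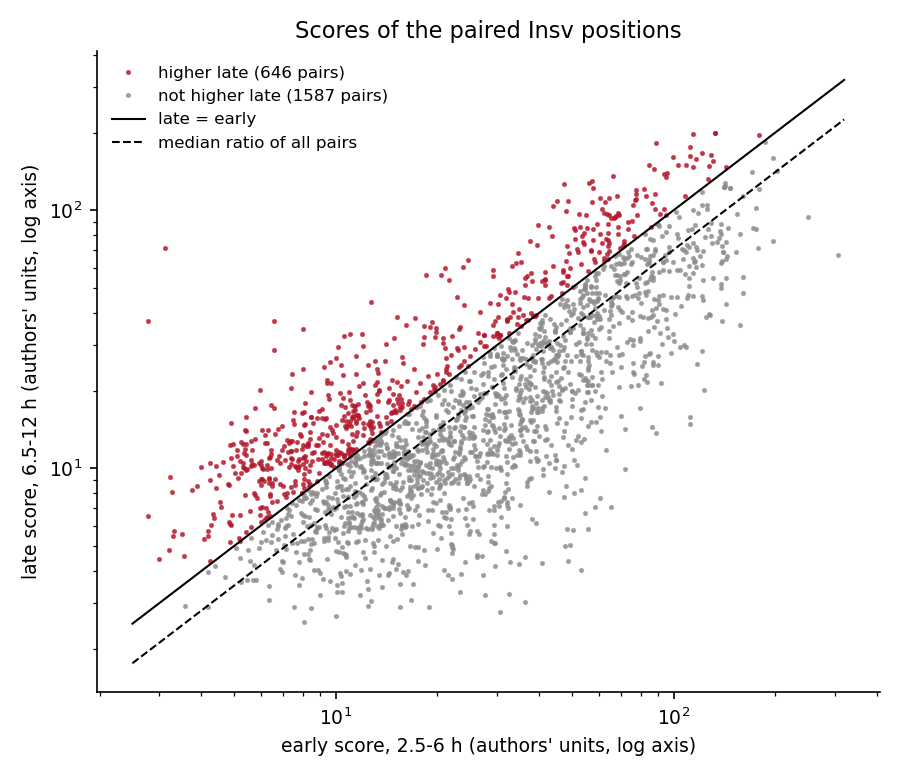
Late score (6.5-12 h, vertical) against early score (2.5-6 h, horizontal) of all 2233 pairs, both in the authors' units on log axes; each point is 1 pair. The 646 pairs scoring higher late lie above the solid line of equal scores, and the dashed line marks the median ratio of all pairs, 0.702.

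Both weak and strong positions were among the pairs scoring higher late. By early score, 255 of them (39.5%) had 10 or less, 169 (26.2%) had 10 to 20, 117 (18.1%) had 20 to 50 and 105 (16.3%) were above 50. Of the remaining pairs, 135 (8.51%) had an early score of 10 or less. Taken by band, 255 of 390 pairs with an early score of 10 or less scored higher late (65.4%, exact binomial 95% interval 60.4 to 70.1). The share was 27.6% (24.1 to 31.3) for early scores of 10 to 20, 16.3% (13.7 to 19.3) for 20 to 50 and 20.4% (17.0 to 24.2) above 50. These intervals and those that follow cover counting error only and treat pairs as independent, although many lie close together. The early score that defines the bands is the divisor of the ratio, so nothing is read from the differences between bands.

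The lowest band was a selected one, since 390 of the 2180 early positions scoring 10 or less (17.9%) were in a pair at all. Above an early score of 50, 514 of 518 positions (99.2%) were paired. In the lowest band the 255 pairs had median scores of 10.5 late and 6.72 early, and a median ratio of 1.53. In the highest band the 105 pairs had median scores of 95.8 late and 67.5 early, and a median ratio of 1.38.

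By late score, 53.1% of the pairs in the highest of 10 equal classes (119 of 224, 46.4 to 59.8) scored higher late, against 6.73% in the lowest (15 of 223, 3.81 to 10.9). Of the 100 highest late positions, 70 belonged to a pair scoring higher late, and of the 100 highest early positions, 14 did. The score that defines these classes is part of the ratio, so nothing is read from the difference.

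**Figure D2:**
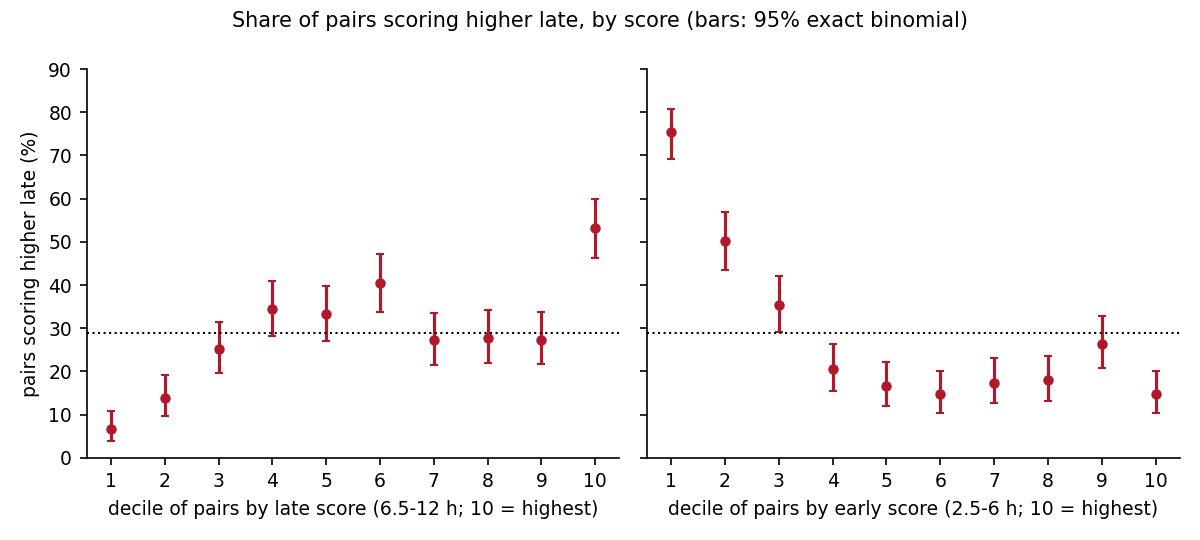
Share of pairs scoring higher late (%) in 10 equal classes of all 2233 pairs by late score (left) and by early score (right); bars are 95% exact binomial intervals and the dotted line is the 28.9% of all pairs. By early score the share is 75.3% in the lowest class and 14.7% in the highest. By late score it is 6.73% in the lowest and 53.1% in the highest. Either score is part of the ratio, so nothing is read from these differences.

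High-scoring positions are given first. The 10 pairs with the highest late scores among the 646 were numbers 1 to 4 and 6 to 11 of the late list. At 3R 12724295 the late score was 199.8 and the early score 132.7, a ratio of 1.51, and the pair was number 1 late and number 47 early. At 3R 24973997 the scores were 198.4 late and 132.4 early, a ratio of 1.498. At 3R 24864858 they were 198.1 late and 114.5 early, a ratio of 1.73. The leading 3 pairs thus shared an arm, and each scored at least 1.498 times as high late as early.

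The pair at 2R 11735640 had closer scores, 195 late and 179 early, a ratio of 1.09. It was the only one of the 646 pairs among the 10 highest early positions. The largest ratio of these 10 was at 3R 26292977, with 182 late and 88.5 early (2.06), number 6 late and number 169 early. On X, the pair at 301698 had 175 late and 112 early, a ratio of 1.57, and the pair at 6737988 had 164 late and 129.5 early, a ratio of 1.27. The pair at 2L 13445717 had 167 late and 121 early, and that at 2R 13356722 had 162 late and 112 early. The last of the 10, 3R 24865646, lay in the same region as 3R 24864858 and had 161 late and 99.8 early.

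Surroundings differed among these 10. The pair at 2L 13445717 stood alone, with its nearest other pair 225795 bp away, and that at X 301698 was the only pair of its region, 79960 bp from the next. At 3R 12724295, 3R 24864858 and 3R 24865646 the region held 5 pairs.

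The 2 largest ratios belonged to weakly called early positions. At X 5641028 the late score was 71.5 and the early score 3.12, a ratio of 22.9; the pair was number 161 late and number 5352 of 5364 early. At X 12644871 the scores were 37.1 late and 2.77 early, a ratio of 13.4, and the early position was number 5363. No other position of either list lay within 2 kb of these 2 pairs, and the early and late calls were 5 bp and 10 bp apart.

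A gap separated them from the rest. The next ratio was 5.67, at 3L 8791892 (37.2 late, 6.56 early), followed by 4.38 at 3R 20405901 (28.8 late, 6.59 early) and 4.31 at 3R 11824809 (34.5 late, 8.01 early). The remaining 5 of the 10 largest lay between 3.07 and 3.46, at 2L 5237496, 2R 8148467, 2L 19083702, 3R 18458105 and 3L 2466711. Of the 10, 7 were the only pair of their region, and their late scores did not exceed 71.5. None of them was among the 10 with the highest late scores.

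The authors' name ranks of these 2 leading pairs also had smaller numbers late. At X 5641028 the rank was 281 late and 2276 early, and at X 12644871 it was 423 late and 3283 early. With 1 library per age it was not tested whether so low an early score would recur.

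Chromosome arm was not used by the rule. Arm 3R had the largest share of pairs scoring higher late, 185 of 531 (34.8%, 30.8 to 39.1), and X the smallest of the large arms, 113 of 502 (22.5%, 18.9 to 26.4). The intervals of these 2 arms did not overlap, and the difference was 12.3 percentage points (Newcombe-type 95% interval 6.70 to 17.9). These are the highest and the lowest of the large arms, and the interval does not allow for that choice. Between them lay 2L with 112 of 368 (30.4%), 2R with 108 of 379 (28.5%) and 3L with 122 of 439 (27.8%). Their intervals overlapped each other and those of both 3R and X. Chromosome 4 had 4 of 12 pairs, and 2 further pairs lay on the heterochromatic sequences 2RHet and 3RHet, 1 on each. Put the other way, 28.6% of the 646 pairs and 23.8% of all pairs were on 3R, against 17.5% and 22.5% on X.

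Early scores moved with arm. The median early score over all pairs was 27.5 on X and 21.6 on 3R, and 37 of 502 X pairs and 118 of 531 3R pairs had an early score of 10 or less. Among pairs with an early score above 10, the share scoring higher late was 25.4% on 3R (105 of 413) and 18.1% on X (84 of 465), a difference of 7.36 points (1.74 to 13.0). Within bands of early score the order was not fixed. Below or at 10, X had the largest share, 78.4% (29 of 37), against 67.8% on 3R (80 of 118). From 10 to 20 it was 34.3% on 3R and 26.8% on X, from 20 to 50 it was 21.7% and 12.6%, and above 50 it was 20.5% and 15.2%, where 2L was highest with 26.8% (22 of 82). The median ratio of the pairs scoring higher late was 1.42 on 3R and 1.39 on X, and over the large arms it lay between 1.30 on 2R and 1.42 on 3R.

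**Figure D3:**
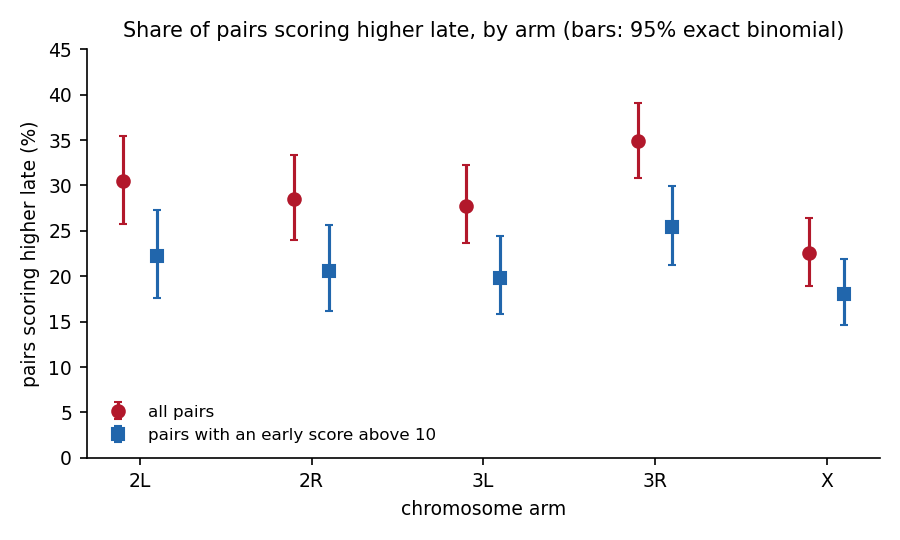
Share of pairs scoring higher late (%) on each large chromosome arm, for all pairs (circles) and for pairs with an early score above 10 (squares); bars are 95% exact binomial intervals. Arm 3R is highest and X lowest in both sets, 34.8% and 22.5% for all pairs and 25.4% and 18.1% for the subset.

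Along the arms, pairs scoring higher late were found nearly everywhere. Of 121 windows of 1 Mb that held a pair, 2 held none that scored higher late. In the 105 windows with at least 10 pairs the share had a median of 28.6% and ran from 0 to 57.1%. Windows above 50% were 2, both near the end of 3R: 24 to 25 Mb with 11 of 20 pairs (55.0%) and 26 to 27 Mb with 8 of 14 (57.1%). The window between them, 25 to 26 Mb, had 4 of 26 pairs scoring higher late (15.4%). The window with the most such pairs was 3R 12 to 13 Mb, with 19 of 39 (48.7%). These windows were chosen after their values were seen.

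Within 3R 12 to 13 Mb, positions of very different strength scored higher late. Beside the pair at 12724295, the window held 3R 12545549 with 96.8 late and 52.4 early, 3R 12803836 with 95.6 late and 69.1 early, and 3R 12682967 with 46.2 late and 36.1 early. Weak ones included 3R 12086779 with 11.8 late and 5.67 early and 3R 12673121 with 6.40 late and 4.35 early. Strong pairs that scored lower late were interspersed, as at 3R 12744823 with 82.5 late and 94.9 early and 3R 12708476 with 46.7 late and 90.8 early. In 3R 24 to 25 Mb the 3 strongest late positions were 24973997, 24864858 and 24865646, and in 3R 26 to 27 Mb 1 pair was strong late, 26292977, while the other 7 pairs scoring higher late had late scores of 13.3 to 25.8.

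Uninterrupted runs of pairs scoring higher late were short. The longest run along an arm held 5 pairs, on 2R, 3L, 3R and X, and 4 on 2L. They were wide apart: the run on X went from 1817293 to 1988208 by early position, and that on 3L from 8594082 to 8979792.

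Close neighbours were examined next, since position along the arm was not used by the rule either. When the nearest other pair lay up to 1 kb away, it also scored higher late for 86 of 270 pairs scoring higher late (31.9%, 26.3 to 37.8) and for 178 of 921 remaining pairs (19.3%, 16.8 to 22.0). The difference was 12.5 percentage points (6.38 to 19.0). At 1 to 5 kb the shares were 32.0% (24 of 75) and 25.3% (49 of 194), and at 5 to 20 kb 34.5% (38 of 110) and 24.5% (48 of 196), with overlapping intervals. Over 20 kb they were 30.7% (58 of 189) and 34.1% (94 of 276). The 2 pairs on 2RHet and 3RHet had no neighbour and were left out. Nearest pairs are often each other's nearest and then count from both sides, so the intervals are too narrow. With the early list reduced to its 2390 highest scores, the difference up to 1 kb was 3.73 points (-2.70 to 10.9). With early scores above 10 it was 10.7 points (4.28 to 17.6). Positions this close may share sequenced fragments, and the part of this in the result was not tested.

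**Figure D4:**
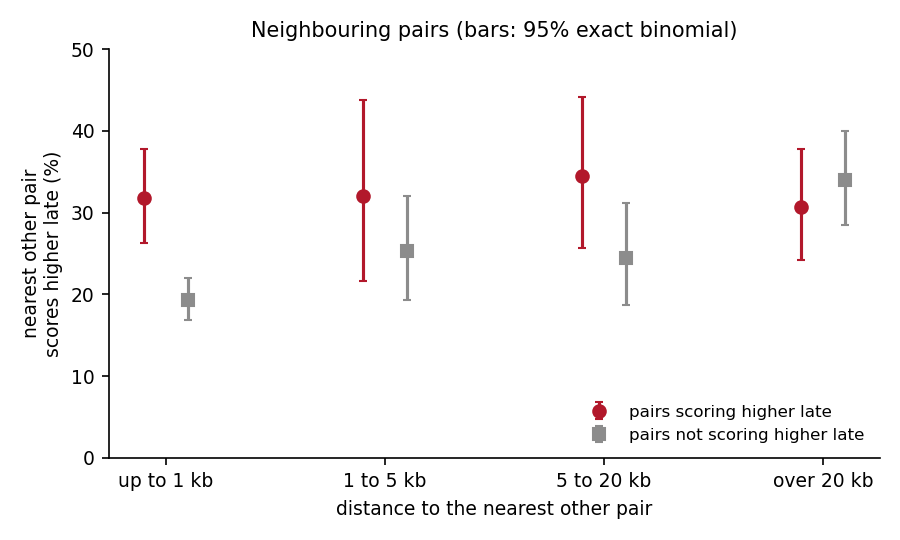
Share of pairs whose nearest other pair scores higher late (%), by distance to that pair, for pairs scoring higher late (circles) and for the remaining pairs (squares); bars are 95% exact binomial intervals. Up to 1 kb the shares are 31.9% and 19.3%; over 20 kb they are 30.7% and 34.1%.

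Pairs scoring higher late stood alone more often than the rest. Positions of both lists were chained into regions when they lay up to 1000 bp apart. Of the 646 pairs, 368 (57.0%, 53.0 to 60.8) were the only pair of their region, against 635 of 1587 remaining pairs (40.0%, 37.6 to 42.5). Seen by distance, 189 of 465 pairs more than 20 kb from any other pair scored higher late (40.6%), and 270 of 1191 pairs with another up to 1 kb away did (22.7%), a difference of 18.0 percentage points (12.8 to 23.2). The early score moved with this difference. Among pairs with an early score above 10 the difference was 3.09 points (-2.23 to 8.80). In the band of 10 or less the shares were 72.2% (117 of 162) over 20 kb and 46.2% (43 of 93) up to 1 kb. From 10 to 20 they were 32.4% and 28.4%, and above 50 they were 21.7% and 20.1%. From 20 to 50 the order was reversed, with 11.6% over 20 kb and 16.6% up to 1 kb.

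Of the 460 regions with 2 or more pairs, 253 held no pair that scored higher late, 184 held both kinds and in 23 every pair scored higher late. The 646 pairs fell into 575 of the 1463 regions that held a pair; 62 regions had 2 or more of them and 9 had 3, the most in any region. Among regions with exactly 2 pairs, 178 had none that scored higher late, 74 had 1 and 21 had both. By the top score of either list, 470 of the 1463 regions (32.1%) had a higher top late. In the 460 regions with 2 or more pairs the same pair scored highest at both ages in 346, and another pair did in 114 (24.8%). In 57 of those 114 regions the highest late pair was one that scored higher late.

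Both kinds of pair lay close together in several of the regions with the most pairs scoring higher late. On 3R, the region at 12724295 to 12725652 held 5 pairs within 1358 bp. The late scores along it were 199.8, 17.1, 128, 50.02 and 19.9, and the early scores at the same places were 132.7, 62.9, 56.3, 137.8 and 13.4. The pairs at 12724295, 12724972 and 12725650 thus scored higher late, with ratios of 1.51, 2.27 and 1.48, and those between them, at 12724715 and 12725267, scored lower late, with 0.272 and 0.363. The highest late position of this region was 12724295, and the highest early score, 137.8, belonged to the pair at 12725267.

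A second region on 3R, 24669990 to 24672079, held 6 pairs. Its 2 leftmost had 37.8 and 29.5 late against 94.98 and 104 early, and the next 3 had 55.7, 60.2 and 74.6 late against 48.6, 23.7 and 61.3 early. The highest late score was at 24671288, and the highest early score belonged to the pair at 24670240. Its last pair had the lowest late score of the list, 2.53, with 8.07 early, and 2 late positions had no early partner.

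The region at 3R 8451885 to 8453533 held 4 pairs, of which that at 8453069 scored lower late (31.98 late, 79.5 early). The others had 113.6, 56.0 and 24.7 late against 108, 18.5 and 23.1 early. At 3L 5870192 to 5873141, 3 of 5 pairs scored higher late, with 43.8, 56.0 and 51.2 late against 28.7, 20.4 and 36.4 early. The leftmost pair there had 7.69 late and 33.1 early. At 2L 19083063 to 19084050, 3 of 4 pairs scored higher late: a pair with 108 late and 62.7 early was flanked by weaker ones with 17.7 and 23.1 late against 12.5 and 7.43 early. The remaining pair there, at 19084049, scored lower late (5.17 late, 6.45 early).

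**Figure D5:**
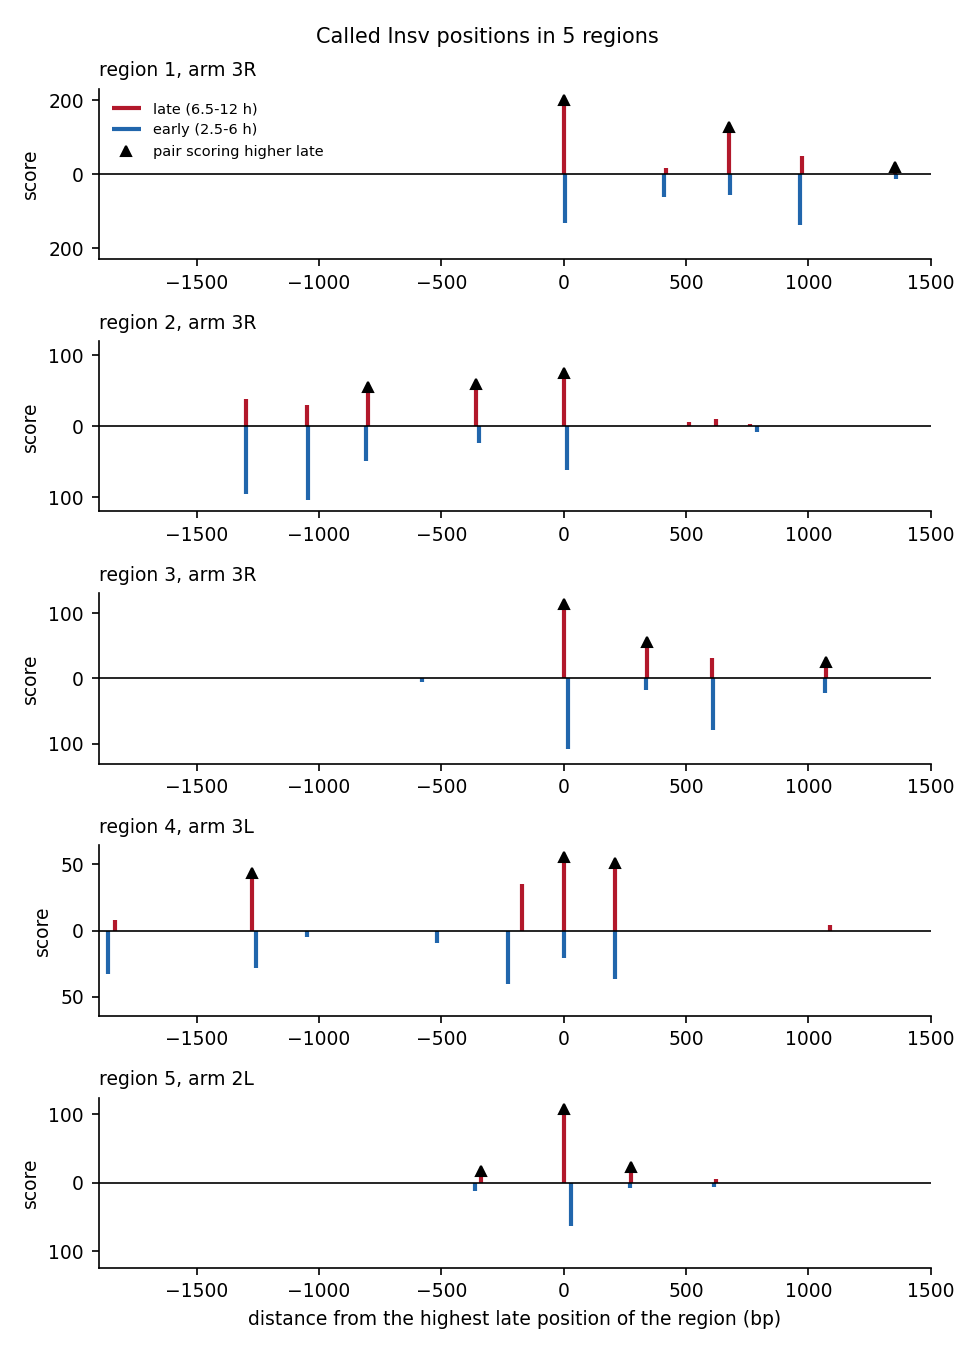
Called Insv positions in the 5 regions with the most pairs scoring higher late (ties by summed late score), by distance in bp from the highest late position; late scores (6.5-12 h) are drawn upward and early scores (2.5-6 h) downward, and triangles mark the pairs scoring higher late. In region 1, 3 pairs are marked, and the 2 unmarked pairs between them have late scores of 17.1 and 50.02 and early scores of 62.9 and 137.8.

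Other regions with 3 such pairs were at 3L 14768335 to 14769247 and X 6696300 to 6697665, where all 3 pairs scored higher late, at 2L 11806178 to 11809427, with 3 of 7, and at 3L 19055876 to 19056768, with 3 of 4. The strongest pair at 3L 14768335 to 14769247 had 111 late and 77.6 early, and that of the X region 60.8 late and 43.8 early. Chained at up to 5000 bp, the group with the most was 3L 16401019 to 16412809, with 5 of 11 pairs. Its 5 had late scores of 8.78 to 38.4 and ratios of 1.105 to 1.36, and its strongest pair scored lower late (52.4 late, 82.2 early). The next group, 2L 8296561 to 8305168, had 4 of 7, led by 104 late against 43.9 early and 96.8 late against 63.6 early.

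The distance between the late and early calls of a pair is given next, for the pairs scoring higher late and then for the rest. The median distance was 8 bp in both sets, with upper quartiles of 16 bp and 15 bp. Distances of at most 20 bp were found in 536 of 646 (83.0%, 79.8 to 85.8) and in 1322 of 1587 (83.3%, 81.4 to 85.1). The late call had the higher coordinate in 326 of the 646 pairs, the lower in 292, and the same base in 28, with a median shift of 1 bp in both sets. Stronger pairs lay closer: the median was 10 bp for the pairs scoring higher late with an early score of 10 or less and 5 bp for those above 50, against 10 bp and 6 bp in the remaining pairs.

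Unpaired positions near the pairs were examined last. An early position without a partner lay within 1000 bp of 194 of the 646 pairs (30.0%, 26.5 to 33.7) and of 703 of the 1587 others (44.3%, 41.8 to 46.8). Above an early score of 10 the shares were 37.6% (147 of 391, 32.8 to 42.6) and 46.6% (676 of 1452, 44.0 to 49.2). Above 50 they were 49.5% (52 of 105) and 55.0% (225 of 409), with overlapping intervals. A late position without a partner was rare near both, 43 of 646 (6.66%) and 90 of 1587 (5.67%). Above an early score of 50 it was near 14 of 105 pairs scoring higher late (13.3%, 7.49 to 21.4) and 31 of 409 others (7.58%, 5.21 to 10.6).

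Exact score values recurred within the lists. A late score identical to that of another late position was found in 203 of the 646 pairs (31.4%) and in 260 of the 1587 others (16.4%). For early scores the counts were 58 (8.98%) and 271 (17.1%). These scores form the ratio that chose the pairs, so nothing is read from the differences. The part of recurring values in the score difference was not tested.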

How the data were processed

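Deposited peak lists of the 2 Insv immunoprecipitations were used, 1 per age. Per the submitters' processing notes, Bowtie and dm3 were used. Not given in the sources used here are the caller, its settings and how IgG reads entered. Each position's score was deposited by the authors with no unit, and scales may differ between lists. Depth is unknown, so no interval on a score is given. Coordinates are 1-based dm3. Neither sequence nor annotation of dm3 was used here, so no gene or motif was assigned.

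The rule, distances and named items (the 10 highest ratios, the 10 highest late scores, 3 pairs on either side of the threshold, and the 5 regions and 5 wider groups richest in members) were chosen with earlier results of these data known; further regions, windows and pairs were picked once their values had been seen. With 1 sample per group no test was run. Shares carry 95% exact binomial (Clopper-Pearson) intervals; differences of shares combine these by Newcombe's method. The code recovered known pairs on simulated lists. Simulated positions lay further apart than many real ones, since 1191 real pairs had another pair up to 1 kb away. Pairing among close neighbours was therefore not checked. Software was Python 3.11.15 with scipy 1.17.1, pandas 2.3.3, matplotlib 3.10.9 and numpy 2.4.6.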

Additional observations from a re-analysis of the deposited data

How the results depend on the processing

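The number of pairs scoring higher late depends on the criterion. Of 2233 pairs it was 646 on the deposited scores, 1116 above the median ratio (by construction), 1131 by rank among pairs and 243 above a ratio of 1.5. It was 308 with the early list reduced to the length of the late one, and 391 of the 1843 pairs with an early score above 10. Both of these settings left fewer pairs to count from. The difference between 3R and X of 12.3 percentage points was 5.92 above a ratio of 1.5, where both shares were smaller (14.7% on 3R, 8.76% on X). Arm 3R stayed above X in all 8 alternatives run. Among these, restriction to the large arms could not change the difference, and pairing up to 500 bp left it at 12.3. The difference between close neighbours, 12.5 points, was 3.73 with the reduced early list. In the other alternatives it lay between 7.66 (median ratio) and 13.5 (pairing up to 50 bp), with 10.7 for early scores above 10. At 1 to 5 kb it was 6.74 points, and -7.28 by the median ratio, with intervals spanning 0. The difference between isolated and close pairs, 18.0 points, was 12.1 by the median ratio, 0.184 with the reduced early list and 3.09 with early scores above 10. The median distance between the calls of pairs scoring higher late, 8 bp, was 6 bp with the reduced early list. The share of pairs scoring higher late that were the only pair of their region, 57.0%, was 64.2% with chaining at 500 bp. It was 52.8% at 2000 bp and 40.4% with early scores above 10. An unpaired early position lay near 30.0% of the pairs scoring higher late. That share was 18.9% within 500 bp and 37.6% with early scores above 10. Settings with early scores above 10, and those for isolated pairs, were chosen after the data were seen. The cause of these shifts was not tested. No paired analysis was possible because there is a single library per age, which also means that none could be left out.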
